A study of Mus musculus with 12 samples.

Results

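The genes described here are 56 homeobox genes that lie outside the Hox clusters, of 21887 mouse protein-coding genes. They were taken by name from the LIM, NK, Dlx and Msx, sine oculis (Six2, Six3, Six6), Iroquois, paired and Cdx subfamilies, together with regional genes of the head and brain and Zfhx4. Each was described by the histone mark peaks within 20 kb of either end of its gene model on mm10. Chromatin immunoprecipitation with sequencing was done in 2 mouse melanoma cell lines grown as cultures in serum-containing DMEM/F12: line 971 is Kmt2d wild type (WT) and line 493 is a Kmt2d mutant. The labels do not say how the mutation arose. Each of 4 marks was profiled in 1 library per line, so no difference between the lines has a replicate check and no test was possible. Each genotype is also represented by 1 line, so genotype and line cannot be told apart.

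Homeobox genes encode transcription factors that bind DNA through the homeodomain and set regional and cell type identity in the embryo. In cells that do not use them, such genes are classic targets of Polycomb repressive complex 2, which places H3K27me3 over their CG-rich promoters and often far beyond. H3K4me3 marks CG-rich promoters, H3K27ac marks active promoters and enhancers, and H3K4me1 marks enhancers, where Kmt2d is a main methyltransferase. A promoter that carries both H3K4me3 and H3K27me3 is called bivalent and is known as a poised state in stem cells.

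Of the 56 genes, 39 had a promoter window in the RefSeq table of GRCm38.p6, the assembly of mm10. A window runs from 250 bases before to 50 bases after the annotated start. The windows below show the sequence under the different states described in the following paragraphs, 5′ to 3′ on the gene's strand, with every CG dinucleotide in capitals. Tlx1 (chr19:45150465-45150764, plus strand), a gene needed for the spleen, had H3K4me3 at a gene end in line 493 alone. En1 (chr1:120602237-120602536, plus strand), a midbrain and hindbrain regulator, and Nkx2-3 (chr19:43612075-43612374, plus strand), a gut and spleen regulator, had the most WT H3K27me3. The window of Irx2 (chr13:72628570-72628869, plus strand) lay in an H3K4me3 peak of line 493 alone. Emx2 (chr19:59458440-59458739, plus strand), a regulator of the cerebral cortex, and Isl1 (chr13:116309639-116309938, minus strand), a motor neuron and heart progenitor factor, lay in mutant H3K4me3 peaks of 6.76 kb and 5.15 kb that ran into WT H3K27me3 regions. Dlx1 (chr2:71529195-71529494, plus strand), a forebrain interneuron gene, and Prrx1 (chr1:163313601-163313900, minus strand), a limb and face mesenchyme gene, had no WT H3K27me3. The last 5 of these windows were chosen after their values were seen.
Tlx1: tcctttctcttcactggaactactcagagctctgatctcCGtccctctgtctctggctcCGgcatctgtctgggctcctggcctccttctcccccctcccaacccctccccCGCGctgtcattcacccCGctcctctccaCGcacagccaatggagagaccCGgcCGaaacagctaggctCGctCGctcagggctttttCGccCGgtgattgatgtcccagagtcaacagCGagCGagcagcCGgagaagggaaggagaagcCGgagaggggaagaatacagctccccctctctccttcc
En1: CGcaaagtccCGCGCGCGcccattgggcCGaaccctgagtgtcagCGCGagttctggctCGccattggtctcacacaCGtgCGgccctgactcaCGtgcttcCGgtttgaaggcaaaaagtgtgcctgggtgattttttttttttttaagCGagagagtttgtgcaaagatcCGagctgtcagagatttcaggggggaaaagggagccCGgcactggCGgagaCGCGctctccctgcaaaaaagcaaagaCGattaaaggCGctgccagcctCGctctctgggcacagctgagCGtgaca
Nkx2-3: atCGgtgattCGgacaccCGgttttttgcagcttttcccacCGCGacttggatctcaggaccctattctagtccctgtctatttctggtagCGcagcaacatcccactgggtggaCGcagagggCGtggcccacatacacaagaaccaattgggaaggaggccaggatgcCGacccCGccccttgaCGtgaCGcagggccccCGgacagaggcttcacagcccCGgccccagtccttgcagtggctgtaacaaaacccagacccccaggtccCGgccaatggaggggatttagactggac
Irx2: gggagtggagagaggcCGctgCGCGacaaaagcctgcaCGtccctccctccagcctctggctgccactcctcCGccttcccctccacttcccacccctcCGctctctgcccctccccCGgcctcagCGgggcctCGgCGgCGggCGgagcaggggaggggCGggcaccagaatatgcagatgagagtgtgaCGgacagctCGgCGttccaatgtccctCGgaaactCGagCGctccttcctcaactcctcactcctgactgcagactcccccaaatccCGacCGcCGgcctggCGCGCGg
Emx2: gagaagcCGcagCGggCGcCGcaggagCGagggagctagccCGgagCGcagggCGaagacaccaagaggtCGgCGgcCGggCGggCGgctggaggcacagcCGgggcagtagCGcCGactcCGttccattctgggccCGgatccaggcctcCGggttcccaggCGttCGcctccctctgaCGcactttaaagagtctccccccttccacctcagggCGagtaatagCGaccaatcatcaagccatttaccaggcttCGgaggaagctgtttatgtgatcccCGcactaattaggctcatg
Isl1: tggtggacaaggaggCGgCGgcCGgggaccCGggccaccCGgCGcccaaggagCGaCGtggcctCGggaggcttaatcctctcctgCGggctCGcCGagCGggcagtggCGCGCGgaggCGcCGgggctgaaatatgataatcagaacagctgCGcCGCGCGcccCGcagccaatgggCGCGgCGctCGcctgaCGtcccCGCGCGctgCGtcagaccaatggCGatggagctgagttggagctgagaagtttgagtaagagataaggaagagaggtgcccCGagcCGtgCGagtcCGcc
Dlx1: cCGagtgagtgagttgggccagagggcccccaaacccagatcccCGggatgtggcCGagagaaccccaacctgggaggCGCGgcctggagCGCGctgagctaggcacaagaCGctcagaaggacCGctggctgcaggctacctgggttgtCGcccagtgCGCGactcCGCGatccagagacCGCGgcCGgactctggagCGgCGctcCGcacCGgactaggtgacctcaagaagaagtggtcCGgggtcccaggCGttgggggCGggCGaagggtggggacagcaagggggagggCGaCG
Prrx1: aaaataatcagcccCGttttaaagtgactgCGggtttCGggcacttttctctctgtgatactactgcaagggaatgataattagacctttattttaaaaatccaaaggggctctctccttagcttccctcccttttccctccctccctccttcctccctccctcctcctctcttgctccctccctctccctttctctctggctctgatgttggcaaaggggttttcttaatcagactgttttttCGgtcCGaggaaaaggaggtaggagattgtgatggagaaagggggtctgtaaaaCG

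All 300 bases of the Tlx1 window lay in WT H3K27me3, none lay in WT H3K4me3 and all 300 lay in mutant H3K4me3. The En1 window was likewise covered by WT H3K27me3 over 300 bases, with 51 bases in WT H3K4me3 and 300 in mutant H3K4me3. The Nkx2-3 window lay in WT H3K27me3 over 300 bases and in no H3K4me3 peak of either line. The first 3 windows therefore share full Polycomb coverage in line 971 and differ in the mutant H3K4me3 list. The Irx2 window lay in no WT peak of either mark and in mutant H3K4me3 over 300 bases. The Emx2, Isl1, Dlx1 and Prrx1 windows lay in H3K4me3 over 300 bases in both lines. WT H3K27me3 covered 110 bases of the Isl1 window and none of the other 3.

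The promoter windows were rich in CG. They held a median of 22 CG dinucleotides per 300 bases, against 13 over the windows of 17492 protein-coding genes, and their observed over expected CG ratio was 0.756 against 0.576. The 30 windows of members with WT H3K27me3 at a gene end held a median of 23, and the 9 without it held a median of 17. The 1585 windows of other genes with WT H3K27me3 at a gene end held a median of 13, with a ratio of 0.544. The high CG count was thus not shared by marked genes in general. The count ran from 2 in Hmx2 to 50 in Barx1, the stomach regulator. Among the printed windows, Isl1 held 37 and Prrx1 held 6, although both lay fully in H3K4me3 in both lines. The homeodomain core TAATTA was found on either strand in 4 windows (10.3%, against 4.68% of all windows): Emx2, Prrx1, Msx2 and Otx2. The E-box CACGTG was in 4 windows (10.3%, against 7.9%), its relative CATGTG in 3 (7.69%, against 11.5%) and the AP-1 site TGACTCA in 2 (5.13%, against 4.58%). These are letter matches only.

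WT H3K27me3 was the mark most of these genes shared. A peak lay within 1 kb of a gene end in 43 of the 56 genes (76.8%), against 9.94% of all protein-coding genes. The peak bases within 20 kb, merged where peaks overlap, had a median length of 12.9 kb per gene, against 0 kb over all protein-coding genes and 4.64 kb over the 2133 other genes with WT H3K27me3 at a gene end. More than 10 kb was present around 35 members and around 608 genes in all (2.78%). The 39 genes of the Hox clusters all had the mark at a gene end, with a median of 37.8 kb in windows that overlap each other. The 64 other developmental homeobox genes were close to the members in the share marked, at 49 genes (76.6%), with a median of 7.66 kb. Of 29 broadly expressed homeobox genes, such as the Pbx and Zeb genes, 1 was marked (3.45%), with a median of 0 kb.

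**Figure D1:**
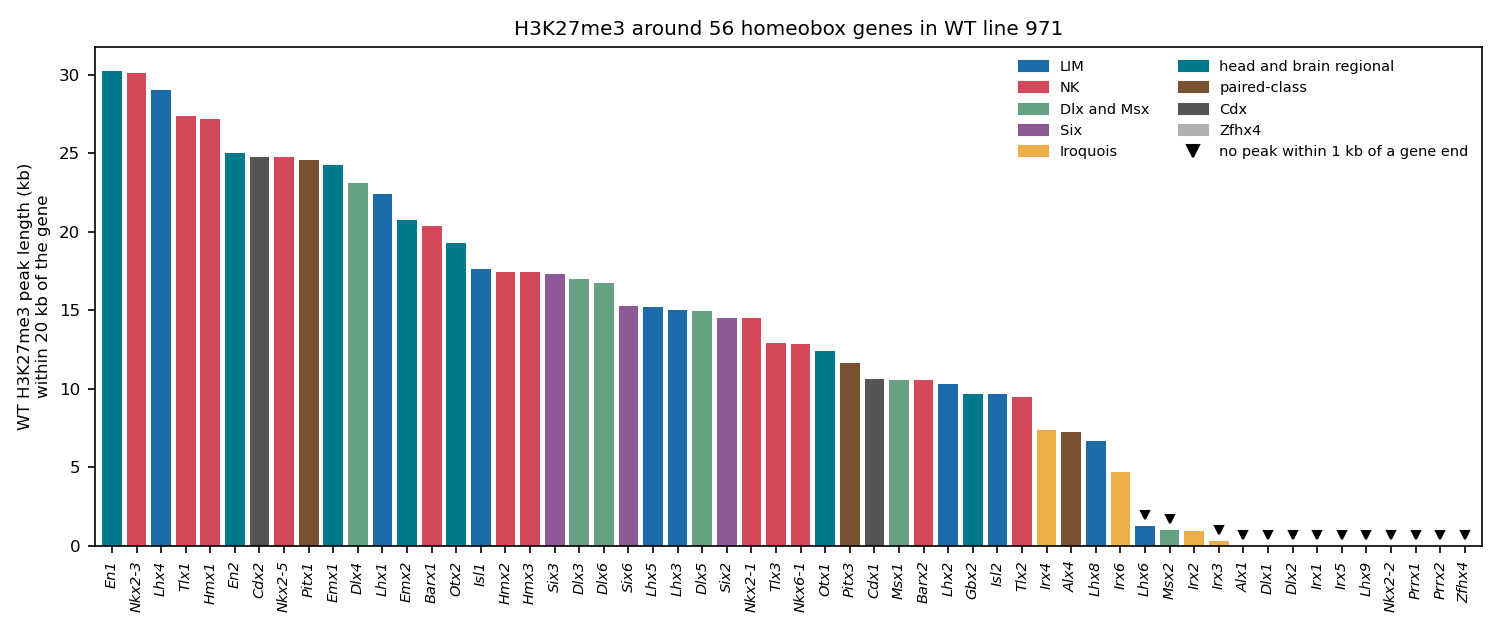
Each bar is the WT H3K27me3 peak length (kb) within 20 kb of 1 homeobox gene in line 971, ordered from most to least and coloured by subfamily, with triangles for genes that have no peak within 1 kb of a gene end. Bars run from 30.3 kb at En1 to 0 kb at 10 genes, and each gene has 1 value because there was 1 library.

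The 6 members with the most WT H3K27me3 were En1, Nkx2-3, Lhx4, Tlx1, Hmx1 and En2. En1 had 30.3 kb in 9 peaks, the longest of which spanned 14.3 kb across the start (chromosome 1, 120591908 to 120606199). Nkx2-3 had 30.2 kb, with a peak of 13.1 kb (chromosome 19, 43608074 to 43621165) over the whole gene. Lhx4, a pituitary and motor neuron gene, had 29.0 kb around a longer gene model of 53.7 kb. These 3 genes stand for 3 subfamilies, so the top of the order was not held by 1 of them. Tlx1 had 27.4 kb and the longest peak at any member, 18035 bp (chromosome 19, 45139686 to 45157720). Hmx1, an eye and ear gene, had 27.2 kb with a peak of 16.5 kb, and En2, the relative of En1, had 25.03 kb with a peak of 15.2 kb.

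In 9 members WT H3K27me3 covered the whole gene body: Nkx2-3, Nkx6-1, Six6, Dlx4, Tlx1, Tlx2, Tlx3, Barx1 and Cdx2. Their gene models are short, from 1.90 kb at Tlx2 to 6.85 kb at Tlx1, against a median of 17.2 kb over all protein-coding genes. How many of all genes were covered in full was not counted. These 9 members act in tissues as far apart as spleen, pancreas, eye, branchial arches, sensory ganglia, stomach and intestine. At the other end, 10 members had no WT H3K27me3 within 20 kb, where 15331 of all 21887 protein-coding genes had none. The 10 were Lhx9, Nkx2-2, Dlx1, Dlx2, Irx1, Irx5, Alx1, Prrx1, Prrx2 and Zfhx4. Irx3, Irx2, Msx2 and Lhx6 had 0.305 kb, 0.972 kb, 1.02 kb and 1.29 kb. Of these 4, Irx2 alone had a peak within 1 kb of a gene end.

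The subfamilies differed in how much of the mark they carried. All 7 head and brain regional genes (En1, En2, Otx1, Otx2, Emx1, Emx2, Gbx2) had it at a gene end, with a median length of 20.7 kb and a lowest value of 9.69 kb, at Gbx2. Six2, Six3 and Six6, sine oculis genes that act in eye, forebrain and kidney, each had it, with between 14.5 kb and 17.3 kb. Both Cdx genes, regulators of the intestine, had it, with 10.6 kb at Cdx1 and 24.8 kb at Cdx2. The NK genes had it in 12 of 13, with a median of 17.4 kb, and the exception was Nkx2-2. The LIM genes had it in 8 of 10, with a median of 12.7 kb, and the exceptions were Lhx6 and Lhx9. The Dlx and Msx genes had it in 5 of 8, with a median of 12.8 kb. Dlx3 to Dlx6 had between 14.9 kb and 23.1 kb, while the linked pair Dlx1 and Dlx2 had none. The Iroquois genes had it in 3 of 6, with a median of 0.639 kb and a highest value of 7.38 kb, at Irx4. The paired-class genes were split, with 24.6 kb at the hindlimb gene Pitx1, 11.7 kb at Pitx3, 7.23 kb at Alx4 and 0 kb at Alx1, Prrx1 and Prrx2.

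H3K4me3 lay within 1 kb of a gene end in both lines in 35 of the 56 genes, where the share of all protein-coding genes was 55%. It was there in line 971 alone in 1 gene, Irx6 (1.37% of all genes), and in line 493 alone in 1 gene, Tlx1 (1.68%). In the other 19 genes it was at a gene end in neither line. Among those 19, Lhx4, Lhx9, Hmx2 and Isl2 had it within 1 kb of an annotated start in both lines, and Six3 in line 971 alone. Conversely, Nkx2-3 is among the 35 but had none within 1 kb of its start in either line. The gene-end shares were near those of all genes, but they moved with the peaks kept. With the 50% most significant peaks of each list, 10 members had it in both lines, 7 in line 971 alone and 2 in line 493 alone. With the longer WT list shortened to the length of the mutant list, 29 had it in both lines, 1 in line 971 alone and 7 in line 493 alone. The peaks at these gene ends had lower scores than those at other genes. Over the 35 genes marked in both lines, the authors' score of the strongest gene-end peak, which is -10 log10 of its p value, had a median of 626 in line 971 and 872 in line 493. Over the 12040 protein-coding genes marked in both lines, the medians were 2747 and 2369. Gene by gene, 14 of the 35 members scored higher in line 493, 17 higher in line 971 and 4 the same. Over the 12040 genes the counts were 2694, 5856 and 3490. Scores rank peaks within a list, so no gain or loss between the lines is read from them. A score of 3100 recurs in 18.6% of WT peaks and 17.9% of mutant peaks, so equal scores of 3100 do not show equal signal.

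**Figure D2:**
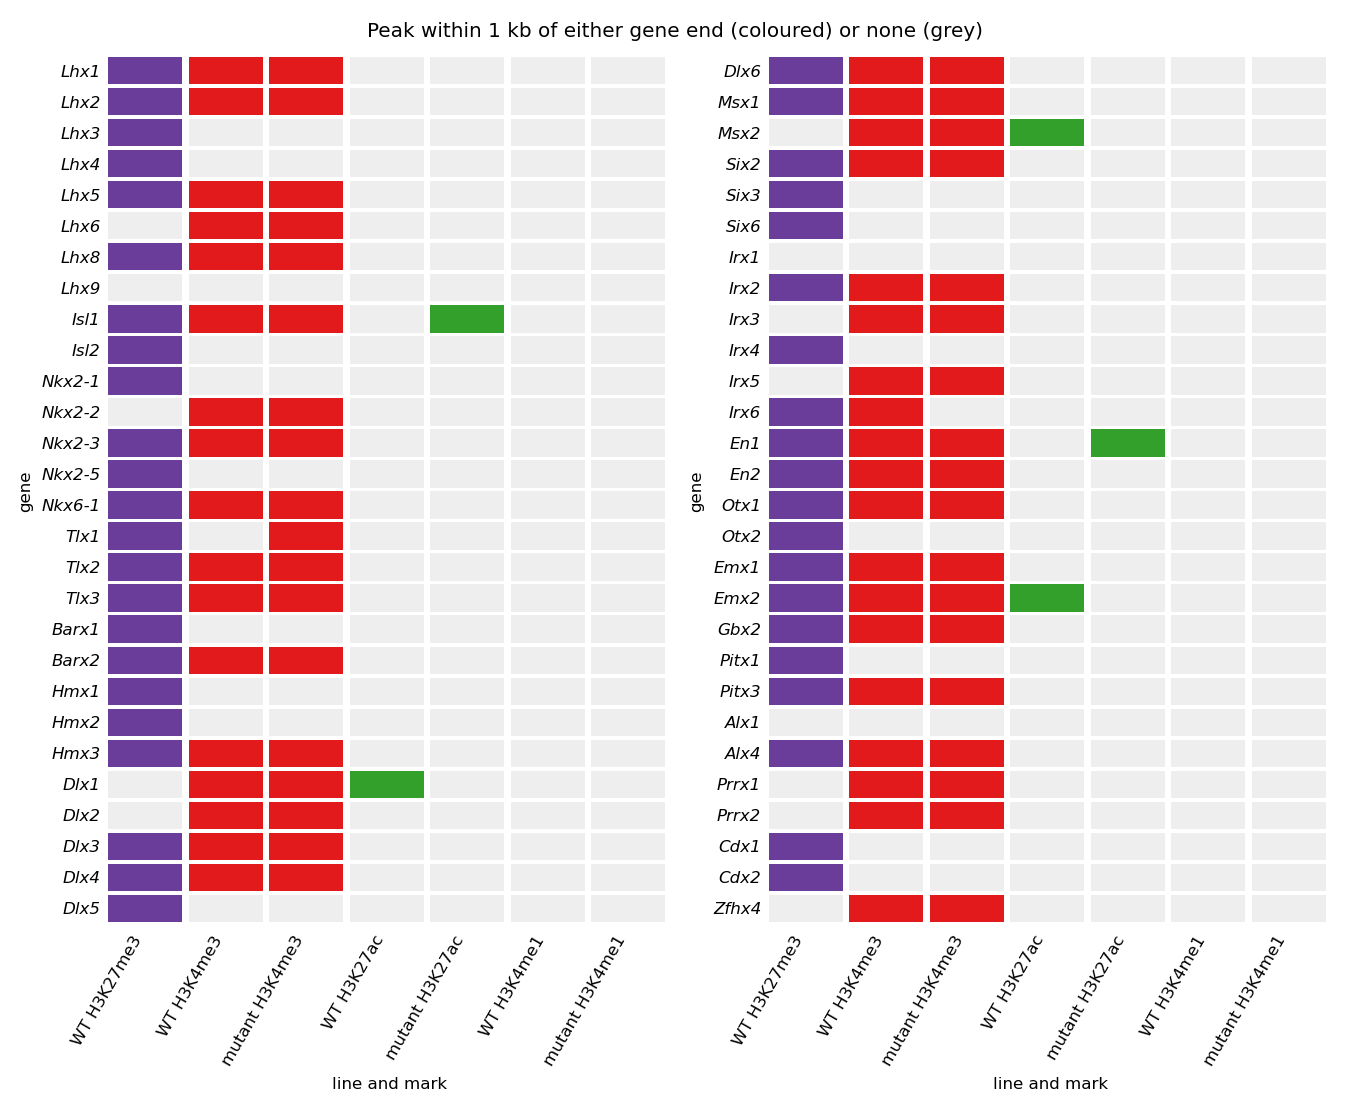
Each row is 1 homeobox gene and each column 1 line and mark, coloured where a peak lay within 1 kb of either gene end and grey where none did. WT H3K27me3 is coloured in 43 rows and H3K4me3 of both lines in 35, whereas H3K27ac is coloured in 5 rows and H3K4me1 in none.

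Both marks were often found together in line 971. WT H3K4me3 overlapped WT H3K27me3 by at least 1 bp within 20 kb of 37 members, against 7.73% of all protein-coding genes and 48.1% of the other genes with H3K27me3 at a gene end. Of the 43 members with H3K27me3 at a gene end, 25 also had H3K4me3 at a gene end in both lines (45.7% of the other genes with H3K27me3 there), Irx6 in line 971 alone (3.19%) and Tlx1 in line 493 alone (6.09%). Lhx4, Hmx2 and Isl2 are not among the 25, although they had H3K4me3 at an annotated start in both lines. The bulk libraries cannot show whether both marks were on the same molecules or in different cells. Across the 56 genes the Spearman correlation of WT H3K27me3 length with WT H3K4me3 length was -0.456, given as a description because both lengths come from 1 culture. The 10 members without H3K27me3 had a median of 8.65 kb of WT H3K4me3, against 2.96 kb over all genes without it. The 35 members with over 10 kb had a median of 1.71 kb, against 2.19 kb over all such genes. H3K4me3 lay within 20 kb in at least 1 line at 49 members and at 15693 of all 21887 protein-coding genes. It was absent from both lines at the other 7 members: Lhx3, Six6, Irx1, Otx2, Cdx2, Pitx1 and Alx1. Among them Irx1 had no peak of any of the 8 lists, and the other developmental regulators Lhx3, Six6, Otx2, Cdx2 and Pitx1 each had at least 15.0 kb of WT H3K27me3.

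**Figure D3:**
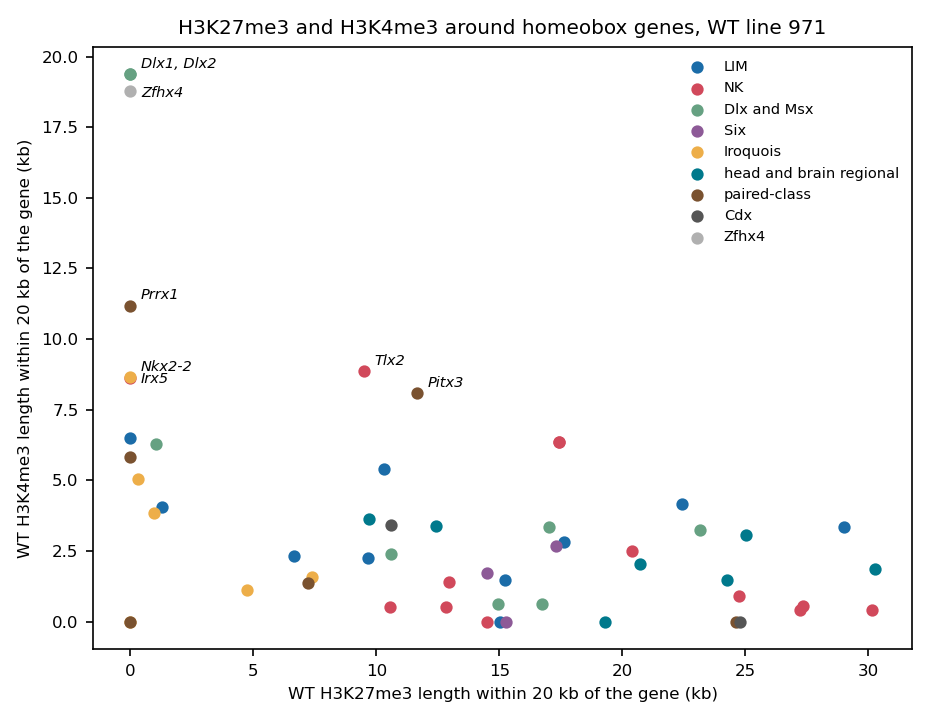
Each point is 1 homeobox gene in line 971, with H3K27me3 length on the horizontal axis and H3K4me3 length on the vertical axis, both in kb within 20 kb of the gene and coloured by subfamily. The longest H3K4me3 values, 19.4 kb at Dlx1 and Dlx2 and 18.8 kb at Zfhx4, are at genes with 0 kb of H3K27me3.

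Between the lines, H3K4me3 covered more bases around 24 members in line 493 and more around 25 in line 971, with none in either line at the other 7. Over all protein-coding genes 23.8% had more in line 493 and 47.8% more in line 971. Among genes with any H3K4me3 in the window, 24 of 49 members had more in line 493, against 33.2% of all such genes. Genes whose windows overlap were counted separately: merged into 51 loci, 22 had more in line 493 and 22 more in line 971. The median length was 2.45 kb in line 971 and 2.66 kb in line 493, against 2.99 kb and 2.76 kb over all genes. The mutant list held fewer H3K4me3 peaks than the WT list, 17987 against 23154, and they were wider, with a median of 1976 bp against 1609 bp. With the 50% most significant peaks of each list, 5 members had more in line 493 and 22 more in line 971. With lists of equal length the counts were 25 and 23, and within 50 kb they were 24 and 27. The near-even split thus held in these 2 alternatives but not with the most significant peaks, and the cause was not tested. The halved lists were not cut at the same score. At Irx2 a WT peak scored 703 was kept, whereas at En1 a mutant peak scored 914 was not. Some peaks belong to neighbours: the 3.42 kb and 3.33 kb around Cdx1 equal those around Pdgfrb, whose gene end lies in its window.

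The direction differed with the presence of WT H3K27me3. Of the 43 members with it at a gene end, 21 had more H3K4me3 in line 493 and 17 more in line 971. Of the 13 without it, 3 had more in line 493 and 8 more in line 971, and the median difference was -1.32 kb. Other genes with H3K27me3 at a gene end were evenly split: 40.7% had more in line 493 and 40.1% more in line 971. Of the 19711 genes without it, 4328 had more in line 493 and 9597 more in line 971. A contrast between marked and unmarked genes is therefore not particular to homeobox genes. With more than 10 kb of H3K27me3, 18 of 35 members (51.4%) had more H3K4me3 in line 493, against 45.2% of all 608 such genes. The Spearman correlation of WT H3K27me3 length with the H3K4me3 difference, mutant minus WT, was 0.393 across the 56 genes, again as a description. The split and the correlation used H3K27me3 of line 971, whose H3K4me3 also enters the difference, so mark and difference are not independent. A matching split by H3K27me3 of line 493 could not be made from the deposited lists. The Hox clusters had more H3K4me3 in line 493 at 30 genes and more in line 971 at 1, counted gene by gene in windows that overlap each other.

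**Figure D4:**
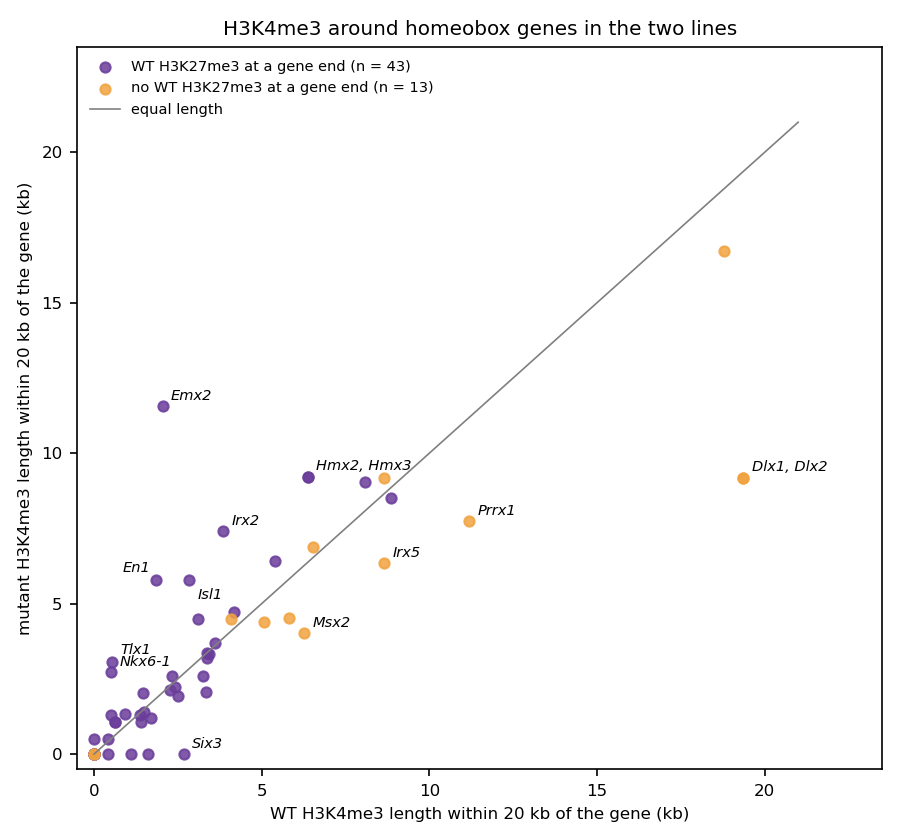
Each point is 1 homeobox gene, with H3K4me3 length within 20 kb (kb) in line 971 on the horizontal axis and in line 493 on the vertical axis; purple points have WT H3K27me3 at a gene end and orange points do not. Emx2 lies farthest above the line of equal length, at 2.04 kb and 11.6 kb, and Dlx1 with Dlx2 farthest below, at 19.4 kb and 9.19 kb.

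The positions of the bases marked in 1 line only were compared with WT H3K27me3. Around the 43 members with H3K27me3 at a gene end, 42.0 kb of H3K4me3 was present in the mutant list alone, and 68% of it lay inside WT H3K27me3 peaks. In the same windows 17.4 kb was present in the WT list alone, and 60.8% of it lay inside WT H3K27me3 peaks. Without Emx2, the gene with the largest difference, the mutant-only length was 32.4 kb and the share 65.9%. Around the other genes with H3K27me3 at a gene end the shares were 39.9% and 15.7%, with shorter H3K27me3 stretches to fall in. Around the 13 members without the mark at a gene end, 10.6 kb was present in the mutant list alone and 31.5 kb in the WT list alone. Whether H3K27me3 itself was lost from these bases in line 493 cannot be read from the deposited lists, because the mutant H3K27me3 list was called against the WT library, as its name states, and shows only regions that were higher in line 493.

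The largest mutant excess was at Emx2. The WT list had 1 H3K4me3 peak of 2.04 kb across the start, with a score of 560, between flanking H3K27me3 peaks that together covered 20.7 kb. The mutant list had 5 peaks that covered 11.6 kb, and the central peak was 6.76 kb wide with a score of 3100. In all, 7.14 kb of the 9.51 kb marked in the mutant list alone lay inside WT H3K27me3 peaks. H3K27ac also differed, with a WT peak of 217 bp at 0.264 kb past the start and 3 mutant peaks of 0.391 kb in all, the strongest with a -log10 p of 13.1 at 1496 bases past the start. Isl1 showed the same picture on a smaller scale. Its H3K4me3 covered 2.83 kb in line 971 and 5.79 kb in line 493, and the peak across the start was 1.32 kb wide with a score of 499 in the WT list and 5.15 kb wide with a score of 3100 in the mutant list. A mutant H3K27ac peak of 317 bp lay just before the Isl1 start, and line 971 had none within 20 kb.

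At En1 the H3K4me3 length was 1.86 kb in line 971 and 5.79 kb in line 493, and with the 50% most significant peaks of each list the difference was 0 kb. The peak at the start was 1.25 kb wide in the WT list, beginning at the start itself, and 2.54 kb wide in the mutant list, where it began at -0.557 kb from the start, inside the 14.3 kb WT H3K27me3 peak. En1 had 2 H3K27ac peaks of 89 bp each in line 493, with -log10 p of 6.64 and 6.33, and none in line 971. At Tlx1 the start lay in the 18035 bp WT H3K27me3 peak, the longest at any member. Line 493 had H3K4me3 peaks of 1.96 kb (score 586) across that start and 1.08 kb inside the gene, whereas the only WT peak, of 0.546 kb, lay 10.0 kb past the start. Nkx6-1, a pancreatic beta cell and motor neuron progenitor factor, had 0.517 kb in line 971 (score 56.3) and 2.73 kb in line 493 (score 672), with the WT peak just before the start and the mutant peak across it. Hmx2 and Hmx3, neighbouring genes of the inner ear and hypothalamus, share most of their window and had 6.38 kb in line 971 and 9.22 kb in line 493. With the 50% most significant peaks the difference of this pair was -1.45 kb, in the other direction, and without peaks at an end of another gene it was 1.48 kb. Emx2 and Tlx1 lie on chromosome 19, where the mutant list held 84.4 H3K4me3 peaks per 100 WT peaks, against 77.3 on chromosomes other than 10 and 19. For H3K27ac the values were 116 against 68.0, and for H3K4me1 they were 44.6 against 19.3, so the longer mutant H3K27ac at Emx2 lay on a chromosome with more mutant H3K27ac peaks; its part in that difference was not tested.

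Irx2, an Iroquois gene, differed from the other Iroquois genes in direction. Line 971 had H3K4me3 peaks of 1.85 kb at the lower gene end and 1.995 kb at 9.78 kb past the start, and line 493 had both, at 1.75 kb and 1.96 kb. In addition line 493 had a peak of 3.21 kb (score 1534) across the annotated start, which lies inside the gene model and more than 1 kb from its ends, so that the gene-end count misses it. With the 50% most significant peaks of each list the length difference at Irx2 was -0.64 kb, in the other direction. The 3.21 kb peak of line 493 was kept there, but its 1.75 kb and 1.96 kb peaks (scores 872 and 829) were not. Both WT peaks (scores 703 and 1051) were kept. No WT peak of H3K4me3 or H3K27me3 overlapped that start. At annotated starts, which were known for 39 members, H3K4me3 was present in both lines in 25 (56.5% of all genes with a window), in line 971 alone in 1, Six3 (1.1%), and in line 493 alone in 3: Irx2, Tlx1 and Tlx3 (1.66%). The mutant Tlx3 peak was weak, at 0.468 kb with a score of 54.9. WT H3K27me3 was within 1 kb of the start in 29 of the 39 (8.19% of all genes with a window).

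**Figure D5:**
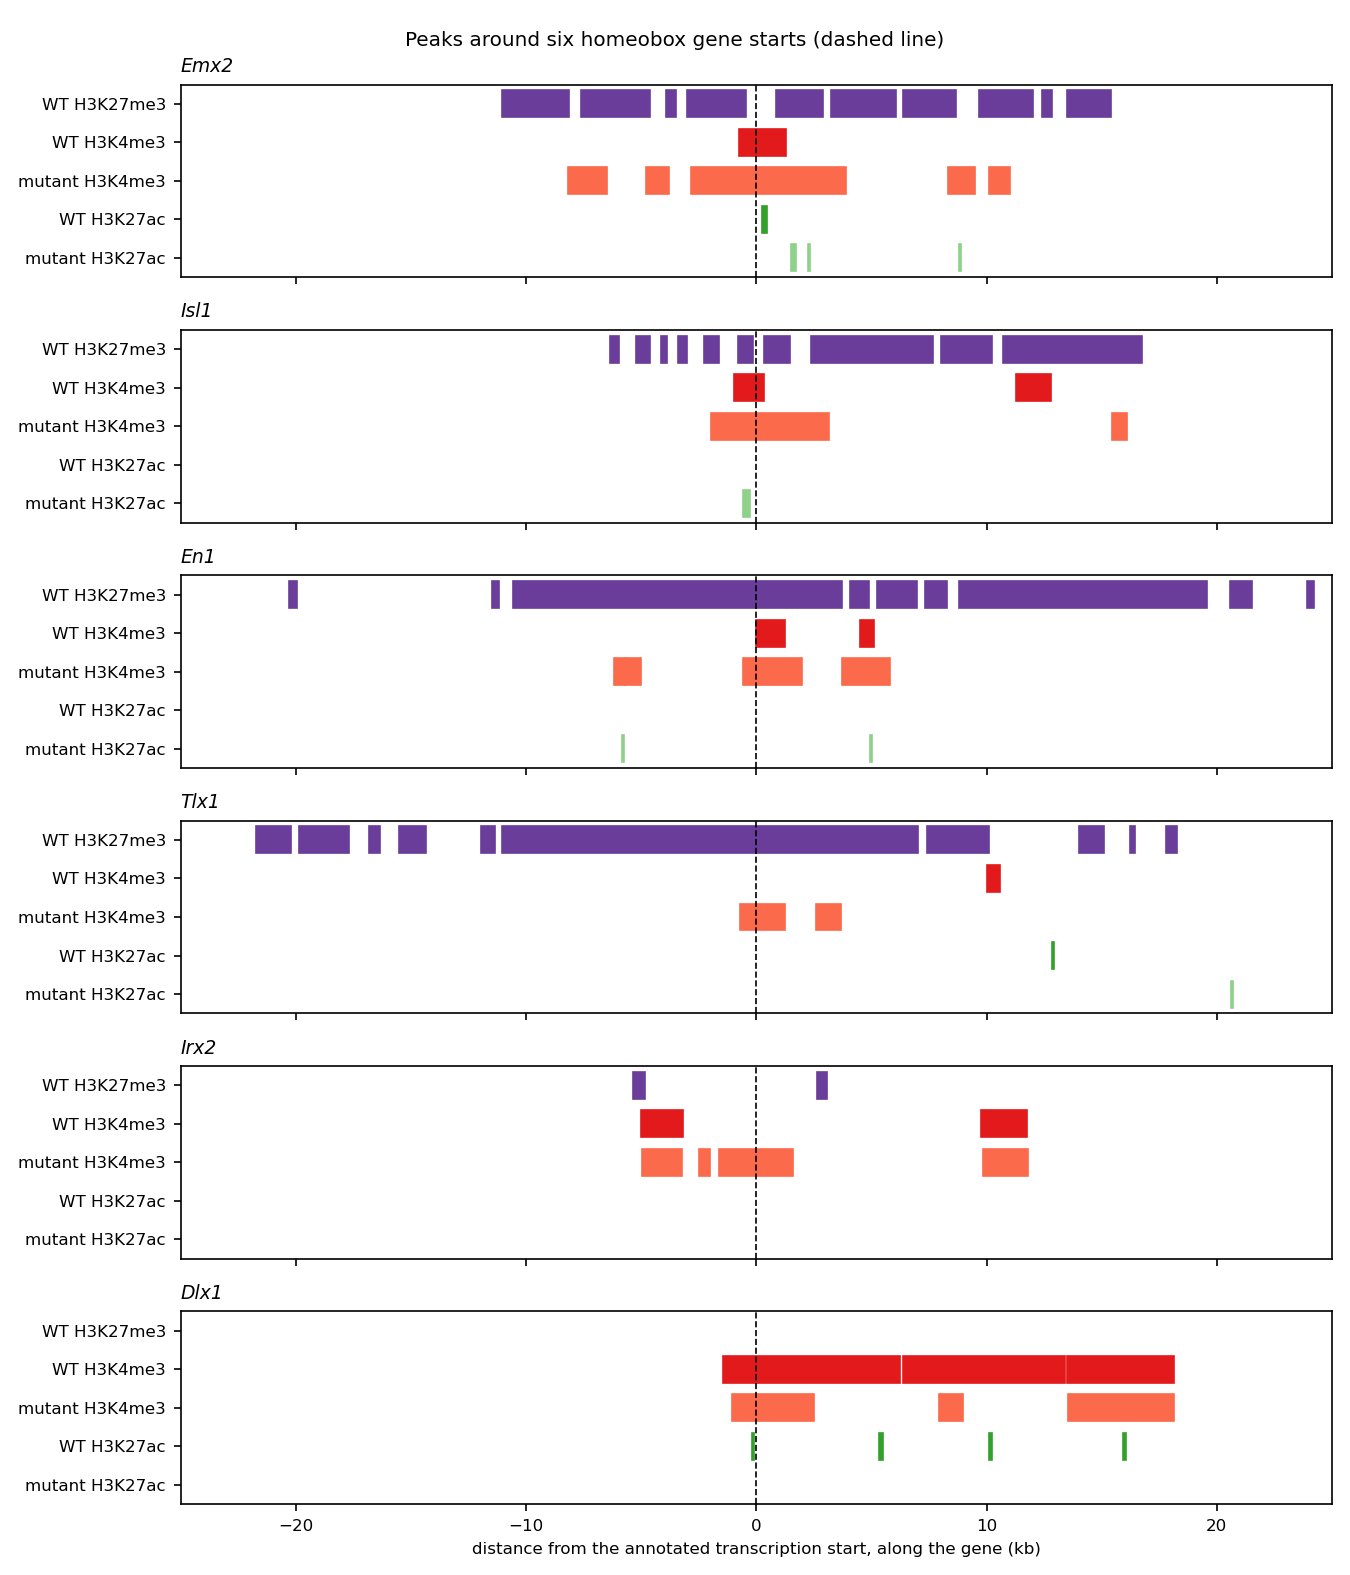
Each panel shows peaks of 5 lists within 25 kb of the annotated start of 1 gene (dashed line), drawn along the gene's strand with distance in kb. At Emx2, Isl1, En1 and Tlx1 the mutant H3K4me3 peaks extend over WT H3K27me3 stretches, at Irx2 a mutant peak of 3.21 kb covers the start, and at Dlx1 the 3 WT H3K4me3 peaks are together longer than the mutant peaks.

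The largest WT excess was at Dlx1 and Dlx2, a linked pair that drives forebrain interneuron and branchial arch development. The 3 abutting WT H3K4me3 peaks of 7.67 kb, 7.01 kb and 4.68 kb ran across both genes, each with a score of 3100, for 19.4 kb in all. Line 493 had 3.54 kb (score 3100) at the Dlx1 end, 1.04 kb (score 320) between the genes and 4.60 kb (score 3011) over Dlx2, for 9.19 kb in all. The stretch that is missing from the mutant list is thus mostly the middle of the locus. Line 971 also had 4 H3K27ac peaks of 98 to 210 bp and an H3K4me1 peak of 0.528 kb there, and line 493 had none of either mark.

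Prrx1 and Prrx2, which act in limb and craniofacial mesenchyme, also had more H3K4me3 in line 971. Prrx1 had 11.2 kb in line 971 and 7.74 kb in line 493, and its start peak was 7.23 kb and 5.82 kb wide, with a score of 3100 in both. Prrx1 was also the member richest in the enhancer marks: H3K27ac covered 1.33 kb in line 971 and 1.58 kb in line 493, and H3K4me1 covered 7.81 kb and 3.12 kb. Prrx2 had 5.83 kb of H3K4me3 in line 971 and 4.51 kb in line 493, with 2.38 kb of H3K4me1 in line 971 and none in line 493. Irx5, an Iroquois gene on chromosome 8, had a single peak of 8.65 kb in line 971 and 6.35 kb in line 493. Msx2, a neural crest and skull gene, had 6.27 kb and 4.03 kb, and a WT H3K27ac peak of 307 bp just inside its start had no mutant counterpart. Zfhx4, which encodes a large zinc finger homeodomain protein, had 18.8 kb and 16.7 kb.

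At Six3, Irx4, Irx6 and Hmx1 H3K4me3 was present in line 971 and none within 20 kb in line 493. Nkx2-1 alone showed the reverse, with 0.489 kb in line 493 and none in line 971. Six3, a forebrain and eye gene with 17.3 kb of WT H3K27me3, had 3 WT peaks of 2.68 kb in all, the strongest of 1.33 kb across its start with a score of 426. With the 50% most significant peaks of each list the Six3 difference was 0 kb, and with lists of equal length it was -1.33 kb. Irx6 had 2 weak WT peaks of 0.712 kb and 0.401 kb with scores of 112 and 57.7. Irx4 had 1.60 kb in line 971 and Hmx1 had 0.401 kb. Six3, Irx4, Irx6 and Hmx1 carried WT H3K27me3 at a gene end, so marked genes were found on both sides of the line of equal length. By subfamily, more H3K4me3 in line 493 than in line 971 was counted in 6 against 3 LIM genes, 9 against 4 NK genes and 5 against 1 head and brain genes. The reverse was counted in the Dlx and Msx genes, at 2 against 6, the Iroquois genes, at 1 against 4, and the paired-class genes, at 1 against 3. Among the few sine oculis and Cdx genes it was 0 against 2 and 0 against 1. Over all protein-coding genes the shares were 23.8% and 47.8%. These counts take genes singly, although Dlx1 and Dlx2, Dlx3 and Dlx4, Dlx5 and Dlx6, Hmx2 and Hmx3, and Six2 and Six3 are pairs with overlapping windows and 1 direction each. Some differences were tiny, such as 0.075 kb at Gbx2 and -0.019 kb at Otx1. The LIM genes outside the largest differences had small ones, for example 6.52 kb and 6.87 kb at Lhx9, a gonad and limb gene, and 4.07 kb and 4.48 kb at Lhx6, an interneuron gene.

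H3K27ac was rare at these genes. It was at a gene end in both lines in 0 members (12.6% of all protein-coding genes), in line 971 alone in 3, Dlx1, Msx2 and Emx2 (16.1%), and in line 493 alone in 2, En1 and Isl1 (6.84%). At the annotated starts of 39 members, 1 gene, Prrx1, had it in both lines (13.5% of all genes with a window). There 5 genes, Lhx2, Lhx9, Dlx1, Msx2 and Emx2, had it in line 971 alone (16.7%), and 1, Isl1, in line 493 alone (6.92%). Within 20 kb, 6 members had more H3K27ac length in line 493 (20.2% of all genes) and 14 more in line 971 (45.4%), and 36 had none in either line. Some H3K27ac lay within 20 kb in at least 1 line at 20 members and at 14385 of all 21887 protein-coding genes. Among genes with any, 6 of 20 members had more in line 493, against 30.8% of all genes. All these peaks were short: the longest within 20 kb of any member was 382 bp, in the Tlx2 window in line 971. That peak began 9.56 kb from the lower end of Tlx2, in a window that holds 6 other genes. The broadly expressed homeobox genes differed from the members here, with H3K27ac at a gene end in both lines in 9 of 29 and in line 971 alone in 8.

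H3K4me1, the mark that Kmt2d places at enhancers, was at a gene end of no member in both lines (0.475% of all genes), in line 971 alone (3.73%) or in line 493 alone (1.79%). Within 20 kb, 9 members had more in line 971 (29.7%) and 2 more in line 493 (8.95%), and 45 had none in either line. Of all 21887 protein-coding genes, 8468 had some H3K4me1 in that window in at least 1 line. With the WT list shortened to the length of the mutant list, 2 members had more in line 971 and 3 more in line 493, so the direction turned. In the full lists, the 2 members with more in line 493 were Lhx1 and Tlx2. Lhx1, a kidney and head organizer gene, had 0.610 kb against none in line 971, in a peak 12.9 kb past its start. Tlx2 had 0.284 kb against none, in a window that holds 6 other genes. Without peaks at an end of another protein-coding gene, 0 members had more in line 493. Apart from Prrx1 and Prrx2, Tlx1 and Cdx1 had the longest WT values, 1.39 kb and 1.37 kb, with none in line 493. The mutant H3K4me1 list was short as a whole, with 3649 peaks against 17373, and of all genes with any H3K4me1 nearby 23.1% had more in line 493, against 2 of 11 members.

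Regions called higher for H3K27me3 in line 493 lay within 20 kb of 6 members, against 3.8% of all genes. They were 361 bp at Lhx8 and 151 bp each at Lhx6, Irx3, Irx5, Msx2 and Alx1, with the Irx3 and Irx5 regions at different places on chromosome 8. None overlapped an H3K4me3 peak of either line, and the Irx3 region ended at -2.965 kb from the start, between H3K4me3 peaks. Of these 6 genes, Lhx8 alone had WT H3K27me3 at a gene end. The regions were as narrow as the list itself, whose median width was 162 bp, against a longest WT peak of 18035 bp at Tlx1. Alx1 lies on chromosome 10, which held 134 of the 1300 regions in the mutant list, the most of any chromosome.

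The 8 lists held 17373 to 26415 peaks on the assembled chromosomes in line 971 and 1300 to 18751 in line 493, and the sequencing depth was not given in the sources used. Of 9 melanocyte markers, Mitf, Pax3, Pmel and Mc1r had H3K4me3 at a gene end in both lines, Sox10 and Mlana in line 493 alone, and Tyr, Tyrp1 and Dct in neither. Around Sox10, a neural crest and melanocyte regulator that carried WT H3K27me3 at a gene end, H3K4me3 covered 2.503 kb in line 971 and 13.9 kb in line 493. Around Pax3 it was 14.7 kb in line 971 against 10.1 kb in line 493, and of the 9 markers 4 had more in line 493 and 4 more in line 971. Fibroblast markers had H3K4me3 at a gene end in both lines in 4 of 8 and in line 971 alone in 1, Thy1, while Lum and Dcn had none within 20 kb. By length, 4 fibroblast markers had more H3K4me3 in line 971, among them Col1a2 with 5.04 kb against 0 kb, and 2 had more in line 493, Col1a1 with 4.84 kb against 3.77 kb and Pdgfra with 7.39 kb against 7.36 kb. Endothelial markers had it in both lines in 1 of 6 (Cdh5, Tie1 and Emcn had none nearby), immune markers in 1 of 6 (Ptprc, Cd3e, Itgam and Csf1r had none nearby) and keratinocyte markers in 2 of 6. The lines thus differed at single lineage markers, in both directions, as well as in Kmt2d genotype, and the part of that difference in the values above was not tested.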

How the data were processed

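The values start from 8 peak lists, 1 per line and mark, with no pooling; 4 input libraries are not analysed here. Per the submitters' processing notes, the build is mm10 and the tools included MACS2, FastQC and MultiQC. Aligner, filters, versions and depth: not given in the sources used here. The H3K27ac, H3K4me1 and H3K27me3 lists hold each peak's fold enrichment over control (a ratio), −log10 p and −log10 q, as deposited by the authors. The H3K4me3 score deposited by the authors is −10 log10 p, and its smallest value is 50. These values only describe or rank peaks within a list. The deposited file names give input as the control, except for the mutant H3K27me3 list, whose name gives the WT H3K27me3 library.

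Peaks on 19 autosomes, X and Y were kept. A gene end was marked by a peak within 1 kb of either end of the RefSeq gene model, which has no strand. Lengths are merged peak bases within 20 kb of the gene. Overlaps needed at least 1 bp. The counting was tested on simulated data and recovered all 200 genes. Python 3.11.15 and NumPy 2.4.6 were used. Members named with values were those whose gene-end state differed, the 6 with most and least H3K27me3, the 6 with the largest H3K4me3 difference in each direction, those with a mutant H3K27me3 region and those with H3K27ac at a gene end. Genes named outside this rule, mostly other members and markers, were picked with their values known. The members and lists were chosen with earlier results of these data known.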

Additional observations from a re-analysis of the deposited data

How the results depend on the processing

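Of 111 alternative counts and medians, 83 were unchanged or, for counts, within 1.5 times the reported value. Beyond that, 24 counts moved by more than 1.5 times and 4 medians moved by less. The cause was not tested where a value moved. The 50% most significant peaks were taken within each list, so the lowest H3K4me3 score kept differed between the lines. Keeping the 50% most significant peaks of each list moved several H3K4me3 results: at a gene end it was in both lines in 10 members, in line 971 alone in 7 and in line 493 alone in 2, more length in line 493 was counted in 5 and overlap with H3K27me3 in 11, while H3K27me3 at a gene end stayed at 42. With those peaks the median H3K27me3 length was 12.1 kb, H3K27ac at a gene end in line 493 alone was in 0 members, and more H3K4me1 length was counted in 0 in line 493 and 5 in line 971. The differences at Irx2 (-0.64 kb) and at Hmx2 and Hmx3 (-1.45 kb each) changed sign there; the other 9 of 12 named differences did not turn, but En1 and Six3 were at 0 kb with those peaks, and Isl1 (5.15 kb), Msx2 (-5.57 kb) and Prrx1 (-1.41 kb) moved by over 1.5 times. With equal numbers of peaks per mark, H3K4me3 in line 493 alone was in 7 members, and more H3K4me1 length was counted in 2 in line 971 and 3 in line 493, which turned the direction. Within 2.5 kb of a gene end, H3K4me3 was in line 971 alone in 2 members and in line 493 alone in 2, H3K27ac in both lines in 2, and H3K4me1 in line 971 alone in 2. At annotated starts (39 members), H3K4me3 in line 493 alone was in 3 and H3K27ac was in both lines in 1, line 971 alone in 5 and line 493 alone in 1. Median H3K27me3 length was 16.4 kb within 50 kb, 9.89 kb within 5 kb and 12.8 kb without chromosomes 10 and 19, where leaving out Tlx1 also left 0 members with H3K4me3 in line 493 alone. Within 5 kb, more H3K27ac length in line 971 was counted in 9 members, and more H3K4me1 length in 0 in line 493 and 5 in line 971. In 2 alternatives chosen after seeing the data, gene ends of the 39 members with an annotated start left 0 with H3K4me3 in line 971 alone, and leaving out peaks at ends of other protein-coding genes left 0 with more H3K4me1 length in line 493. No replicate could be left out and no paired analysis was possible because each line and mark has 1 library. Unknown depth limits every comparison of the lines.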
